A study of Mus musculus with 84 samples.

Results

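The clustered protocadherins are cell-surface adhesion proteins of the cadherin superfamily, encoded by the alpha, beta and gamma gene clusters that lie one after another on a single chromosome. Each neuron switches on its own small choice of these genes, the proteins bind only to matching proteins on other membranes, and the combination is known to give each neuron a surface identity with which its branches avoid one another. In the alpha and gamma clusters a long variable exon, each with its own promoter, is spliced to a set of constant exons shared by the whole cluster, while each beta gene is a single exon. The choice of promoter is known to depend on CTCF and cohesin, which loop promoters to enhancers, and on DNA methylation. The members described here are the genes of the deposited count table whose symbol starts with Pcdha, Pcdhb or Pcdhg and which had at least 10 reads in at least 20 of 84 libraries. There were 57 such genes of 43629 in the table, namely 13 of the alpha cluster, 22 of the beta cluster and 22 of the gamma cluster.

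The table writes 14 of the 59 cluster entries in capital letters, as for human genes, and gives some of these symbols to several entries. Those entries were identified by Ensembl identifier, and 13 of them are among the 57 genes, Pcdha1, Pcdha2, Pcdha11, Pcdha12, Pcdhac1, Pcdhac2, Pcdhga3, Pcdhga8, Pcdhga9, Pcdhga11, Pcdhga12, Pcdhgc3 and Pcdhgc5. The remaining 44 carry the mouse spelling. Pcdha4 did not reach the read minimum and had a median of 0 reads. Only 494 of its 5768 exon bases are free of other genes on the same strand, so its 0 does not show silence. The last entry in capitals, Gm42416, shares all of its 2856 exon bases with other genes and had 0 reads. On mouse genome build GRCm38 all 57 genes lie on the plus strand of chromosome 18. The alpha genes span chr18:36930184-37187661, the beta genes chr18:37264938-37524479 and the gamma genes chr18:37661793-37841873. By type the alpha cluster gave 11 alternate genes and 2 C-type genes, and the gamma cluster gave 12 A-type, 7 B-type and 3 C-type genes. The C-type genes stand at the end of the alpha and gamma clusters and are known to be expressed in most neurons rather than chosen at random.

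RNA came from the central nucleus of the amygdala of 84 mice of the heterogeneous stock bred from the Collaborative Cross founder strains (HS-CC), an outbred population. There were 43 females and 41 males, tested from a median age of 15 weeks, and each gave 1 library. Every animal could choose between water and 10% ethanol for 13 weeks, so the drinking comparisons are between animals that drank more and animals that drank less, with no ethanol-free group. Preference is the share of all fluid that was taken as the ethanol solution, and its mean over the weeks ran from 0.0262 to 0.759 with a median of 0.230 in females and 0.153 in males. Mean intake ran from 0.453 to 15.2 g per kg of body weight with a median of 4.41. Up to 3 animals shared a family and up to 6 libraries a lane, per the labels' protocols, and neither is given for each animal, so the animals are not fully independent, whereas every p-value given here treats them as independent.

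Total counts per library ran from 24118965 to 42036566, of which 6248 to 23175 fell on the 57 genes. The libraries carried markers of the labelled nucleus and of its neighbours. Sst, made by a class of inhibitory neurons, ran from 230 to 570 CPM (read counts scaled to the size of the library), and Gad1, which makes GABA, from 312 to 1003 CPM. The median of Gad1 was 491 CPM. Prkcd, a marker of lateral central amygdala neurons, ran from 4.81 through a median of 18.6 to 84.2 CPM. Of other genes on the central amygdala list, Crh had a median of 6.92, Tac2 of 21.6, Nts of 22.9 and Slc32a1 of 220 CPM. Slc17a7, the vesicular glutamate transporter of cortical and basolateral neurons, ran from 13.0 to 1359 at the median and 2404 CPM, and the choroid plexus gene Ttr from 0.0988 to 23631 CPM. In bulk tissue, fewer cells of a type and less RNA per cell cannot be told apart.

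Because the constant exons belong to every gene of a cluster, reads there could not be given to 1 gene, and levels were set per kilobase of exon sequence that no other gene on the same strand overlaps. Among the 57 genes, the gamma cluster gave most of the reads. Its summed level ran from 42.4 through a median of 236.3 to 414 CPM over the 84 libraries. The beta cluster ran from 112 through 155.3 to 234.5 CPM, and the alpha cluster from 9.24 through 45.5 to 89.7 CPM. Against a median of 429 CPM for all 57 genes together, the median gamma total was 55.1%, beta 36.2% and alpha 10.6%. These shares are of reads given to single genes. The handling of reads in exons shared by several genes is not given. Gm42416, with no exon sequence of its own, had 0 reads in every library, so reads in its shared exons were not given to it. The alpha and gamma totals may likewise lack the reads of their shared constant exons. Beta genes share almost no exon sequence, so alpha and gamma may be understated against beta. The highest library exceeded the lowest 9.71-fold for alpha and 9.75-fold for gamma, against 2.096-fold for beta. Both sexes covered like ranges: the median female and male totals were 44.9 and 48.2 CPM for alpha, 157.96 and 152 CPM for beta, and 239.4 and 231.9 CPM for gamma.

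Per kilobase, 3 of the 5 C-type genes, Pcdhgc5, Pcdhgc3 and Pcdhac2, were the highest of all 57 genes. Pcdhgc5, the last gene of the gamma cluster (ENSMUSG00000102543, start 37819513), ran from 14.9 through a median of 68.9 to 124 CPM, which is 15.0 CPM per kilobase at the median and the highest level of all. Pcdhgc3 (ENSMUSG00000102918, start 37806364), known to promote dendrite branching, ran from 3.57 through 34.6 to 76.2 CPM and had a median of 10.2 CPM per kilobase. Pcdhac2 (ENSMUSG00000102697, start 37143503), the gene that serotonergic axons need to spread evenly, ran from 2.74 through 21.1 to 41.7 CPM, or 6.98 CPM per kilobase. Pcdhgc4 (ENSMUSG00000023036, start 37815079), the isoform on which the survival of inhibitory interneurons is known to depend, ran from 2.17 through 12.1 to 32.3 CPM, or 3.48 CPM per kilobase, below the gamma A genes Pcdhga4 and Pcdhga6 at 4.38 and 3.72. Pcdhac1 (ENSMUSG00000103255, start 37090013) was the lowest of the C-type genes, at 0.414 through 1.79 to 5.07 CPM and a median of 0.701 CPM per kilobase, near the alpha alternate genes. Within a library, Pcdhac2 made up 26.5% to 46.3% of the alpha cluster's level per kilobase with a median of 40.3%. Pcdhgc5 made up a median of 21.4% and Pcdhgc3 of 14.2% of the gamma cluster.

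The other 52 genes ran from 0.167 to 5.80 CPM per kilobase. The median level over all genes of a cluster was 0.768 CPM per kilobase in the alpha cluster, 1.28 in the beta cluster and 2.29 in the gamma cluster. Among alpha alternate genes Pcdha12 was highest at 1.88 CPM per kilobase and Pcdha8 lowest at 0.167. Among beta genes Pcdhb9 was highest at 5.80 CPM per kilobase, running from 12.0 to 26.2 CPM, and Pcdhb1, the first gene of the cluster, was lowest at 0.169, with 2 libraries at 0 reads and 24 under 10 reads. Among gamma A genes Pcdhga4 had 4.38 and Pcdhga1 1.10 CPM per kilobase, and among gamma B genes Pcdhgb6 had 2.64 and Pcdhgb4 0.956. Levels had little relation to gene order along the chromosome. Across genes, which are not independent replicates, Spearman's rho of the median level with position was 0.25 over the 11 alpha alternate genes, 0.16 over the 22 beta genes and -0.02 over the 19 gamma A and B genes.

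**Figure D1:**
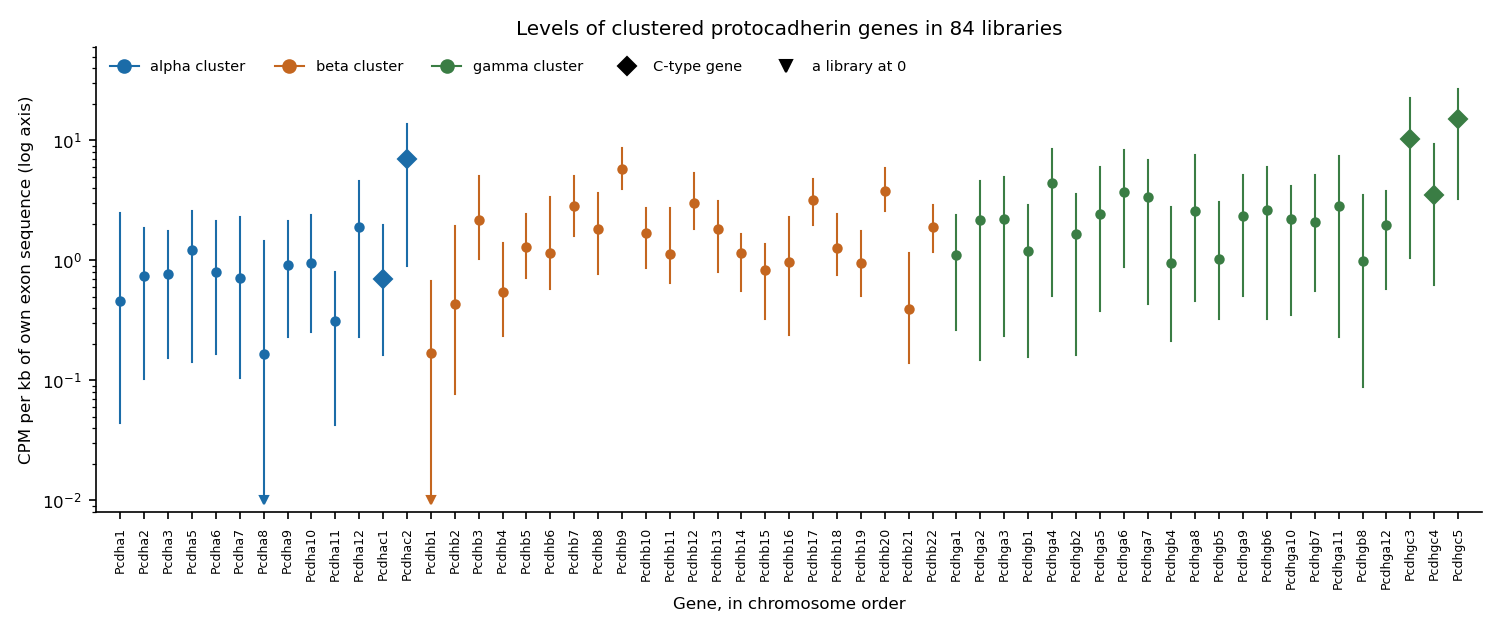
Level of each of the 57 genes in CPM per kilobase of own exon sequence (log axis), in chromosome order, with the median as a point or diamond and a line from the lowest to the highest of 84 libraries. The diamonds of Pcdhac2, Pcdhgc3, Pcdhgc4 and Pcdhgc5 stand above most neighbours, Pcdhac1 does not, and triangles mark Pcdha8 and Pcdhb1, each with a library at 0 reads.

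The alpha and gamma totals rose and fell together from animal to animal, with Pearson r 0.964 and Spearman's rho 0.941 over 84 animals, and beta followed less closely, with r 0.561 to alpha and 0.512 to gamma. Each of these 3 relations had a permutation p of 1e-05, the smallest that 100000 resamples can give, and an adjusted p of 1e-05 over the 3. Within the 4 runs of sample-sheet numbers in the library names (18, 18, 17 and 31 libraries), r of alpha with gamma was 0.926 to 0.974. The totals also moved with a property of each library, a transcript length score, defined here as the mean log2 CPM of 1634 well-counted genes with over 8000 exon bases minus that of 835 genes with under 1500. It ran from 0.0429 to 1.45 over the libraries. It correlated with the alpha total at r 0.851 (rho 0.822), with gamma at r 0.831 (rho 0.834) and with beta at r 0.534 (rho 0.519), each with a permutation p of 1e-05 and an adjusted p of 7.33e-05 over 66 relations. Without the 2 animals farthest from the median score these r were 0.844, 0.830 and 0.501. Within runs they were 0.841 to 0.904 for alpha, 0.845 to 0.911 for gamma and 0.327 to 0.761 for beta. Later values are therefore given as measured and again with this score, sex and run removed.

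The 3 libraries lowest in the alpha and gamma totals were all of the fourth run and had low length scores. The library of female 42 had 9.24 CPM of alpha and 42.4 CPM of gamma at a score of 0.237, that of male 35 had 12.6 and 88.1 CPM at 0.0429, and that of female 41 had 14.2 and 71.4 CPM at 0.259. Their beta totals of 147, 118 and 123 CPM lay between the lowest beta total of 112 CPM and the median of 155.3 CPM. Without them the highest library exceeded the lowest 4.25-fold for alpha, 3.97-fold for gamma and 2.096-fold for beta, and r with the length score was 0.823, 0.818 and 0.490.

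**Figure D2:**
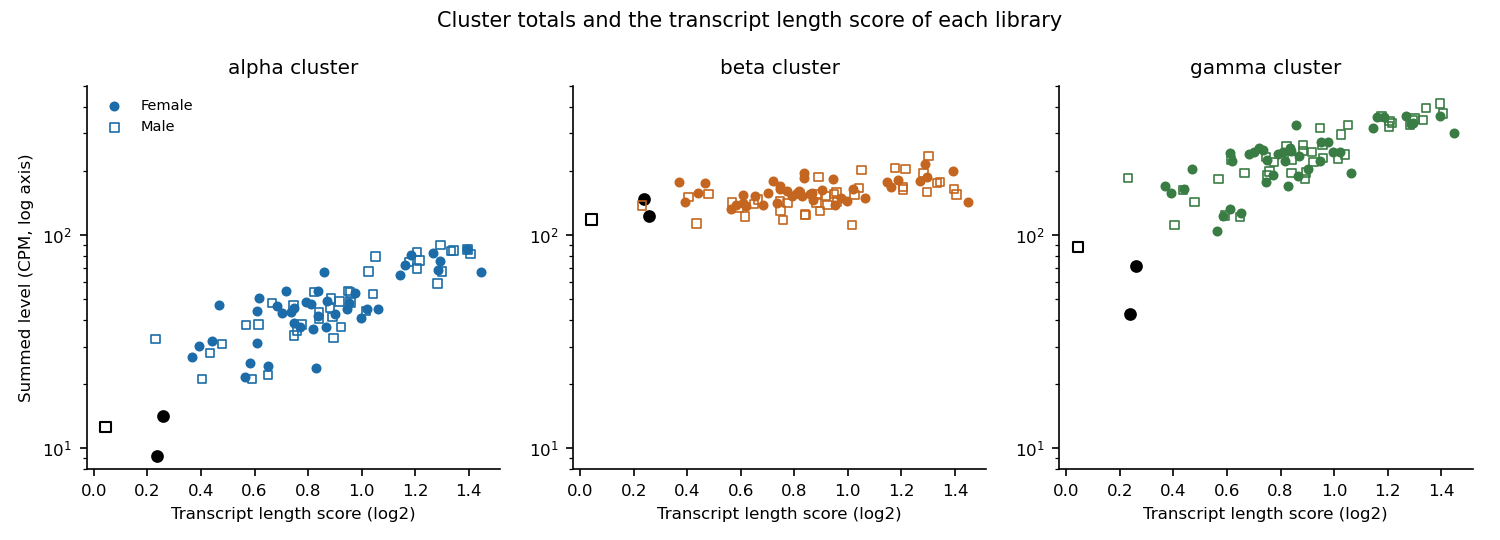
Summed level of each cluster (CPM, log axis) against the transcript length score (log2) of the same library, 1 point per animal, filled for females and open for males, with the 3 lowest libraries in black. The alpha and gamma totals rise steeply with the score, r 0.851 and 0.831, and the beta total less, r 0.534.

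A marker score is the mean of a list's log2 CPM values after each gene was scaled to the same mean and SD over animals. Of 22 relations tested for each cluster total (15 marker scores of cell types, 6 regulators and the length score), 8 passed the adjusted threshold of 0.05 for alpha, 9 for beta and 6 for gamma. With the length score, sex and run removed from both measures, 7, 6 and 3 of 21 passed. Only some of these are named below, and r of alpha and gamma with the ependymal and choroid plexus scores is not given. The beta total was lower where the ependymal score was high, r -0.491 (rho -0.440), and where the choroid plexus score was high, r -0.474 (rho -0.447), each with a permutation p of 1e-05 and an adjusted p of 7.33e-05. After removal r was -0.646 and -0.585. The beta total was higher where the pan-neuronal score was high, r 0.431, and the score of striatal medium spiny neurons, r 0.434, and 0.495 and 0.489 after removal. It was also lower with the score of thalamic, hypothalamic and medial amygdala neurons, r -0.285 (adjusted p 0.0292). With that score alpha had r -0.241, which passed by rho (adjusted p 0.0134) and not by r (adjusted p 0.0736), and likewise with the pan-neuronal score alpha had r 0.192 (adjusted p 0.0282 by rho and 0.176 by r). Within runs r of beta ran from -0.596 to -0.247 with the ependymal score, from -0.560 to -0.232 with the choroid plexus score, from 0.0745 to 0.602 with the pan-neuronal score and from 0.0214 to 0.809 with the striatal score. All 14 choroid plexus markers passed the filter on low counts and their sum ran from 118 to 29615 CPM, while the 14 of 16 ependymal markers that passed summed to 19.4 to 374 CPM.

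The alpha total was higher with the score of cortical and basolateral excitatory neurons, r 0.405, and lower with that of myelinating oligodendrocytes, r -0.411. Both kept their side of the threshold with the length score, sex and run removed, at r 0.402 and -0.382 with an adjusted p of 0.00134 and 0.00252. The gamma total had r 0.274 and -0.312 with the same scores, and 0.107 and -0.165 after removal, where neither passed (adjusted p 0.514 and 0.296). The alpha total was also lower with the scores of central amygdala neurons, r -0.324, and microglia, r -0.265, and after removal r was 0.00944 and 0.00284. The difference between the clusters was tested as a ratio. The alpha over gamma ratio rose with the excitatory score, r 0.586, and fell with the oligodendrocyte score, r -0.484, each with a permutation p of 1e-05 and an adjusted p of 0.00011 over 66 ratio relations. The beta over gamma ratio fell with the ependymal score, r -0.352 (adjusted p 0.00337), and with the choroid plexus score, r -0.332 (adjusted p 0.00545). The beta over alpha ratio had r -0.261 with the ependymal score (adjusted p 0.0368) and -0.216 with the choroid plexus score, which did not pass (adjusted p 0.0951). With the score of thalamic, hypothalamic and medial amygdala neurons neither beta ratio passed by r (adjusted p 0.831 over gamma and 0.192 over alpha). The beta over gamma ratio also fell with the length score, r -0.727 (adjusted p 0.00011).

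Among 6 regulators, Wiz, a zinc finger partner of CTCF, had the closest relation to the alpha and gamma totals. Its r was 0.805 with alpha, 0.791 with gamma and 0.450 with beta, and 0.377, 0.359 and 0.00356 with the length score, sex and run removed, where alpha and gamma still passed (adjusted p 0.00286 and 0.0033). Within runs r of Wiz was 0.585 to 0.874 with alpha and 0.617 to 0.832 with gamma. Ctcf, the looping factor itself, had r 0.521 with alpha and 0.501 with gamma, which turned to -0.0833 and -0.0976 after removal. Smchd1, known to silence these clusters, had r 0.475 with alpha and 0.440 with gamma, and 0.168 and 0.0977 after removal. All 3 regulators moved with the length score themselves, at r 0.735 for Wiz, 0.639 for Ctcf and 0.485 for Smchd1.

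Single genes differed in how much they varied between animals. Spread was measured as the biological coefficient of variation (BCV) of edgeR, the variation between animals beyond counting noise, divided by the trend of all genes at the same abundance. Of the 57 genes, 18 lay above the trend (31.6%), against 23.9% of the 16320 genes tested. They were 4 of 13 alpha, 1 of 22 beta and 13 of 22 gamma genes. The median ratio was 0.880 for the 57 genes against 0.696 for all genes tested. The share above that of all genes was not kept under other choices. Of the 44 genes in mouse spelling 8 lay above the trend (18.2%, against the same 23.9%), with the length score, sex and run in the design 8 of 57 did (14.04%, against 22.4% of all genes), and without the 3 lowest libraries 12 of 57 did (21.1%, against 23.4%).

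The 3 genes with the largest ratio were C-type genes, Pcdhgc5 at 1.97, Pcdhac2 at 1.70 and Pcdhgc3 at 1.69. Their SD of log2 CPM was 0.68, 0.73 and 0.67, near the medians of 0.72 over alpha genes and 0.67 over gamma genes. Their large ratios went with a low trend BCV at their high abundance, 0.215, 0.267 and 0.240. The 3 with the smallest ratio were beta genes, Pcdhb18 at 0.494, Pcdhb10 at 0.524 and Pcdhb22 at 0.534, with an SD of 0.29, 0.35 and 0.26. With the length score, sex and run in the design the order changed, and Pcdha8 stood first at 1.67, Pcdhgb8 next at 1.49 and Pcdhgc5 at 1.37. Pcdha8, Pcdhgb8 and Pcdha1 were singled out after their values were seen, because their spread was wide and stayed wide with that removal. Their ratios were 1.65, 1.46 and 1.31 before it and 1.67, 1.49 and 1.23 after it. Other genes also changed little, such as Pcdhgc4 from 1.27 to 1.17 and the narrow Pcdhb18 at 0.494 both times. Pcdha8 ran from 0 through a median of 0.415 to 3.61 CPM, with 31 libraries under 0.25 CPM and 22 above 1 CPM, though 35 libraries had under 10 reads. Pcdhgb8 ran from 0.222 through 2.45 to 8.68 CPM, with 19 libraries under 1 CPM and 22 above 4 CPM. Pcdha1 ran from 0.109 through 1.14 to 6.23 CPM, with 11 libraries under 0.5 CPM and 23 above 2 CPM. Their correlation with the length score was 0.179 for Pcdha8, 0.211 for Pcdhgb8 and 0.457 for Pcdha1, against medians of 0.718 over alpha and 0.705 over gamma genes.

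**Figure D3:**
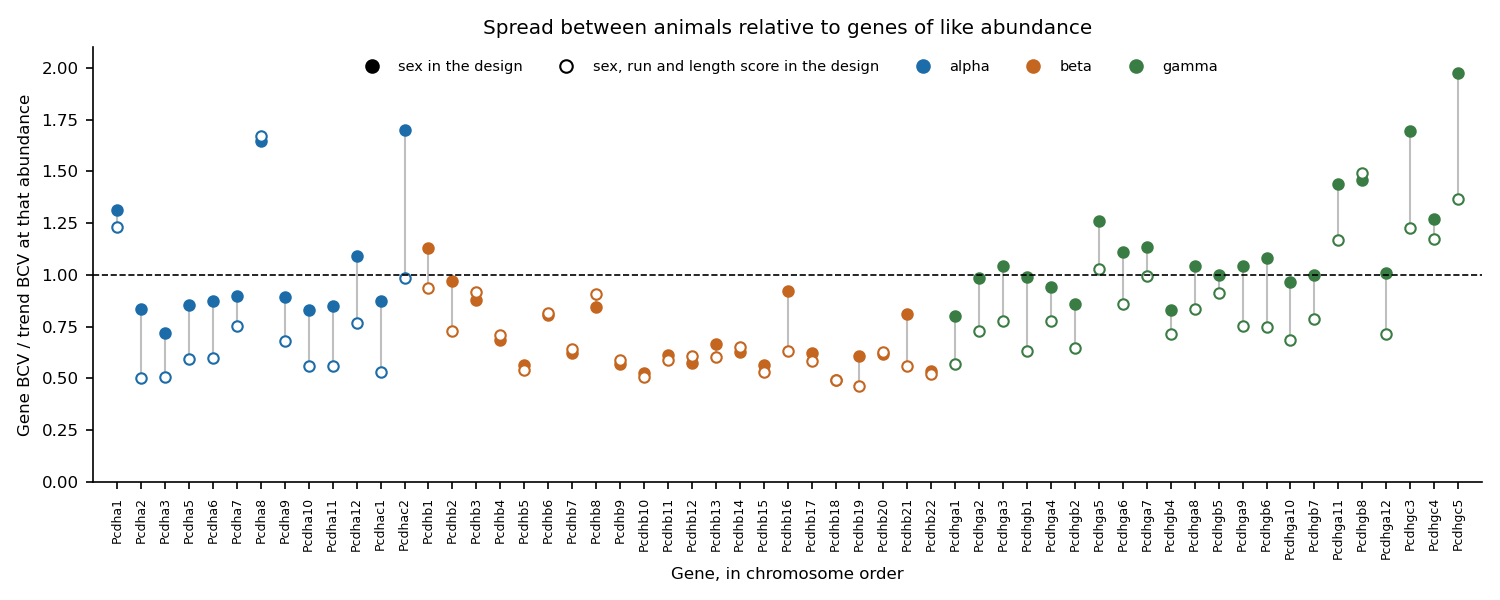
BCV of each gene divided by the trend BCV at its abundance, in chromosome order, with sex in the design (filled) and with sex, run and length score in the design (open). The dashed line is the trend, and 18 filled points lie above it. Pcdha8 and Pcdhgb8 keep their height, while Pcdhgc5, Pcdhac2 and Pcdhgc3 drop, as do many other genes, and Pcdhgc4 drops little.

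Co-variation is described by Pearson's r of log2 CPM over the 84 animals, as a description with no test. The median r was 0.70 over 231 pairs of gamma genes, 0.66 over 78 pairs of alpha genes and 0.32 over 231 pairs of beta genes. Spearman's rho gave 0.65, 0.66 and 0.32. The order turned when each gene was taken relative to the summed count of the 57 genes, with 0.24 within gamma, 0.25 within alpha and 0.41 within beta. Dividing by a shared sum changes r by construction. That sum also varied more than the beta total, with an SD of log2 CPM of 0.39 against 0.22. The turned order is therefore not read as a ranking of the clusters. The median between alpha and gamma genes was 0.65 over 286 pairs, and it was 0.32 between alpha and beta and 0.25 between beta and gamma. The median r of the 57 genes with the 16263 other genes tested was -0.01. With the 1634 long genes it was 0.23 and with the 835 short genes -0.33. With the length score, sex and run removed, the medians were 0.41 within gamma, 0.33 within alpha, 0.22 within beta, 0.31 between alpha and gamma, 0.11 between alpha and beta and 0.04 between beta and gamma. The first principal component of the 57 genes held 48.1% of their variance, and 25.6% after that removal.

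Adjacent genes had higher correlations than non-adjacent ones, most of all in the beta cluster. Adjacent beta genes had a median r of 0.55 over 21 pairs, against 0.29 over 210 non-adjacent pairs, and 0.46 against 0.21 with the length score, sex and run removed. In the alpha cluster the medians were 0.74 and 0.66, and in the gamma cluster 0.75 and 0.69. Beta pairs with starts over 50 kilobases apart had a median r of 0.29. How reads that match several of these similar genes were handled is not given in the sources used here, and neighbours of like sequence could share reads.

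As measured, the closest pair of all was Pcdhac2 with Pcdhgc5, C-type genes of different clusters 676 kilobases apart, at r 0.924. Its r was 0.93 in females and 0.925 in males, 0.829 to 0.954 within runs, and 0.755 with the length score, sex and run removed, where it was no longer the closest. Next as measured came Pcdhga2 with its neighbour Pcdhga3 at r 0.906, Pcdhga9 with Pcdhga10 at 0.903, Pcdhgb2 with Pcdhgb6 at 0.895 and Pcdhac1 with Pcdhac2 at 0.894. The lowest pair was Pcdha12 with Pcdhb6, at r -0.334, and -0.464 after removal. After removal the closest pair was Pcdhga2 with Pcdhga3 at 0.808, followed by Pcdhb15 with Pcdhb16 at 0.777, and the lowest was Pcdha12 with Pcdhb18 at -0.615.

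A block of beta neighbours and 1 alpha gene was chosen after the correlations were seen. Pcdhb4, Pcdhb5, Pcdhb6 and Pcdhb7 had r of 0.597 to 0.696 among their 6 pairs, and 0.599 to 0.703 after removal. Pcdha8, which starts 315 to 349 kilobases away, had r of 0.604 to 0.693 with these 4 beta genes, and 0.555 to 0.709 after removal. With the rest of its own cluster Pcdha8 had a median r of only 0.146, and -0.007 after removal. Pcdha8 with Pcdhb6, the closest of these pairs, had r 0.559 in females and 0.776 in males and 0.564 to 0.837 within runs. The gamma gene Pcdhgb5 had r of 0.413 to 0.500 with the same beta genes. By contrast the median r with all other members was 0.118 for Pcdhb4, 0.241 for Pcdhb5, 0.03 for Pcdhb6 and 0.224 for Pcdhb7. With the rest of the beta cluster these medians were 0.116, 0.279, 0.051 and 0.377. That of Pcdhb7 lay above the median of 0.32 over all beta pairs.

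**Figure D4:**
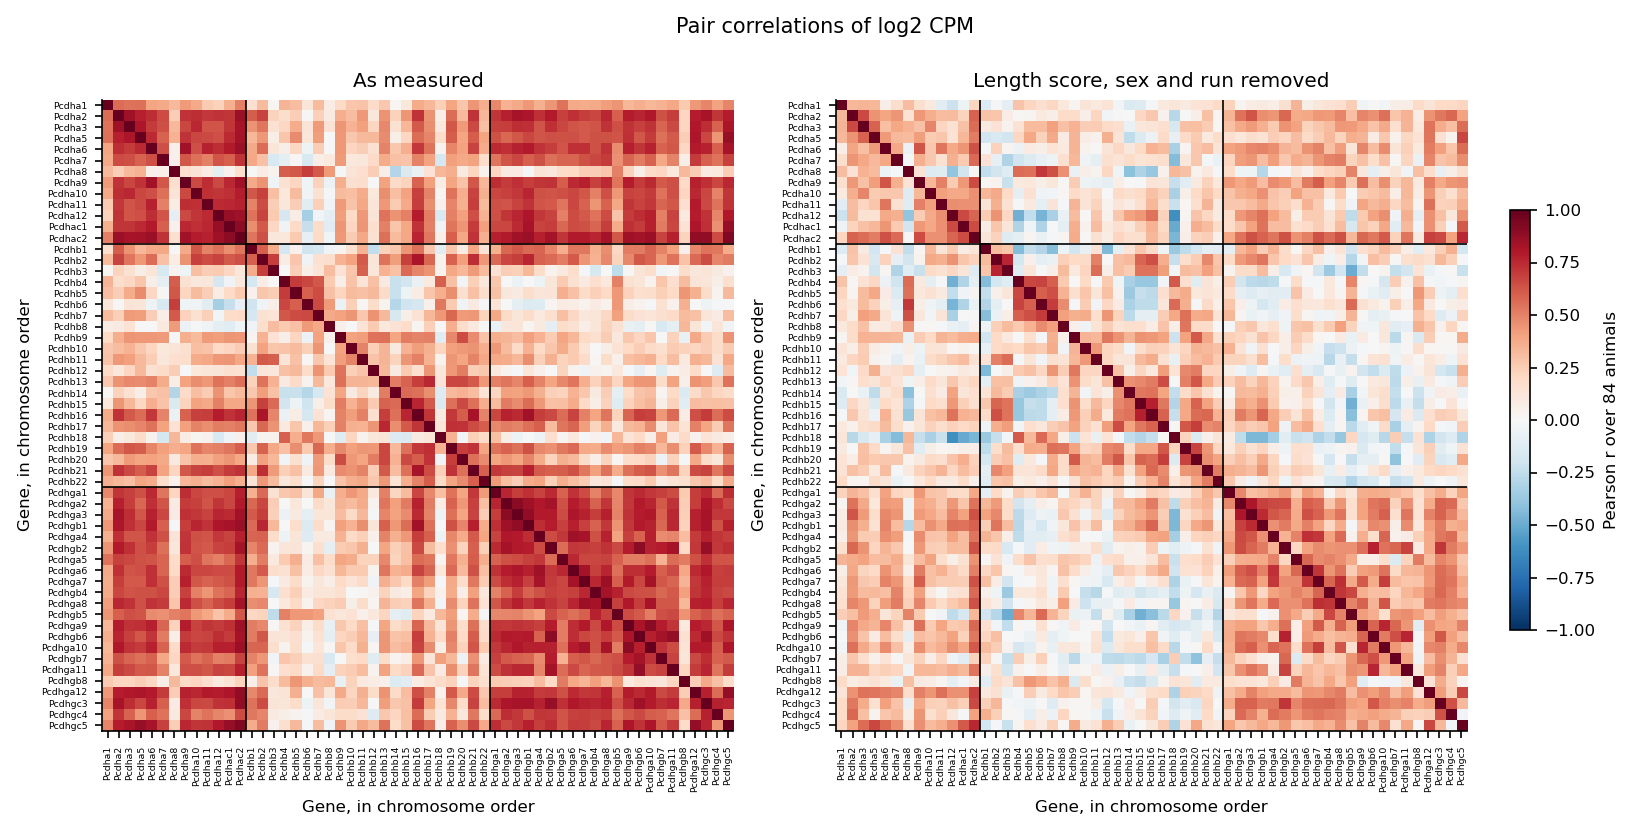
Pearson r of log2 CPM for every pair of the 57 genes over 84 animals, in chromosome order with black lines between clusters, as measured (left) and with length score, sex and run removed (right). The red alpha and gamma blocks pale on the right, where the median r falls from 0.70 to 0.41 within gamma, while the square of Pcdhb4 to Pcdhb7 and its strip with Pcdha8 stay between 0.555 and 0.709.

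The series design names the relation of expression to ethanol preference as its question, over all weeks, in week 1 and in week 13, in all animals and in each sex. No clustered protocadherin gene passed edgeR's quasi-likelihood test at an adjusted p of 0.05 over 16320 genes in any of these 9 comparisons, nor for mean intake, the sex by preference term or the sex difference. DESeq2 and limma-voom gave 0 of 57 as well in each of the 12. The test called few genes of any kind: for mean preference 0% of all genes with both sexes, 0% with females alone and 0% with males alone, in week 1 likewise 0.0306%, 0% and 0.0368%, in week 13 likewise 0%, 0.0368% and 0%, 0.049% for intake, 0% for the sex by preference term and 0.0919% for the sex difference. At an unadjusted p under 0.05 there were 1 of 57 genes for mean preference in all animals, where 3.94% of all genes were, 2 in females (6.95%) and 0 in males (1.65%). For week 1 there were 1, 3 and 1 (3.25%, 2.26% and 5.17%), for week 13 there were 1, 4 and 0 (6%, 8.67% and 3.74%), for intake 1 (7.87%), for the sex by preference term 0 (3.24%) and for the sex difference 3 (3.81%).

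Slopes are log2 changes per 0.5 rise in the preference ratio. Members co-vary over the same animals, so counts of slopes above or below 0, here and later, are not counts of independent observations. For mean preference in all animals the median slope was -0.06 over the 57 genes, with 40 of 57 below 0, against 0.00 over all genes with 8283 of 16320 below 0, and the median SE of a member was 0.20. In females the median was -0.13 with 44 of 57 below 0 (7907 of all genes), and in males 0.05 with 19 of 57 below 0 (8004 of all genes). With the length score as a covariate these medians were -0.10, -0.13 and -0.05, so the median in males changed sign with that score. The sex by preference term, the test of that difference, called 0 genes in edgeR, with 0 members at an unadjusted p under 0.05.

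The smallest p in all animals belonged to Pcdhb17, a beta gene at 9.13 through 14.9 to 22.3 CPM in females and 10.2 through 14.9 to 20.6 CPM in males. Its slope on mean preference was -0.24 (SE 0.095, unadjusted p 0.013, edgeR adjusted p 1.00). In females it was -0.33 (SE 0.12, edgeR adjusted p 0.482), and on week 13 preference in females -0.26 (SE 0.096, edgeR adjusted p 0.244). Pcdhb3, at 4.66 through 8.77 to 18.7 CPM in females and 3.90 through 7.47 to 19.1 CPM in males, had the largest female slope, -0.57 (SE 0.20, edgeR adjusted p 0.477). Neither passed the adjusted threshold in any comparison. For week 13 in females 20 of 22 beta slopes were below 0 with a median of -0.10, and Pcdhb17, Pcdhb3, Pcdhb20 and Pcdhb14 had an unadjusted p under 0.05. In males 19 of 22 beta slopes on week 13 preference were above 0 with a median of 0.14 and none at an unadjusted p under 0.05. Over all genes 8240 of 16320 week 13 slopes were below 0 in females and 8267 in males, and the difference between the sexes was not tested for week 13. The beta genes co-vary, so 20 of 22 and 19 of 22 are not counts of independent observations. In week 1 the smallest p belonged to Pcdhb18 in all animals, 0.21 (SE 0.094), and in males, 0.30 (SE 0.14), and to Pcdhb14 in females, -0.41 (SE 0.16), each with an edgeR adjusted p above 0.95.

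None of 27 relations of the 3 totals with preference passed, and the smallest p belonged to beta and mean preference in females, with r -0.355 and rho -0.317 (permutation p 0.02, adjusted p 0.36 over the 27). Leaving out the 2 animals with the most extreme preference gave r -0.359, and the 4 runs gave -0.156, -0.203, 0.12 and -0.651, so the relation did not hold in the third run. With week 13 preference in females r was -0.336 (adjusted p 0.36), and the runs gave -0.26, -0.526, 0.547 and -0.396. In the same females week 13 preference had r 0.418 with the ependymal score, 0.393 with the choroid plexus score and -0.331 with the striatal score, scores that the beta total moved with, though none of 32 such relations passed (adjusted p 0.15, 0.15 and 0.32). By run the ependymal relation was 0.332, 0.813, -0.0536 and 0.197, so it did not hold in the third run either. Their part in the beta values was not tested. With mean preference the alpha total had r -0.0441 and the gamma total -0.0509 in all animals.

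**Figure D5:**
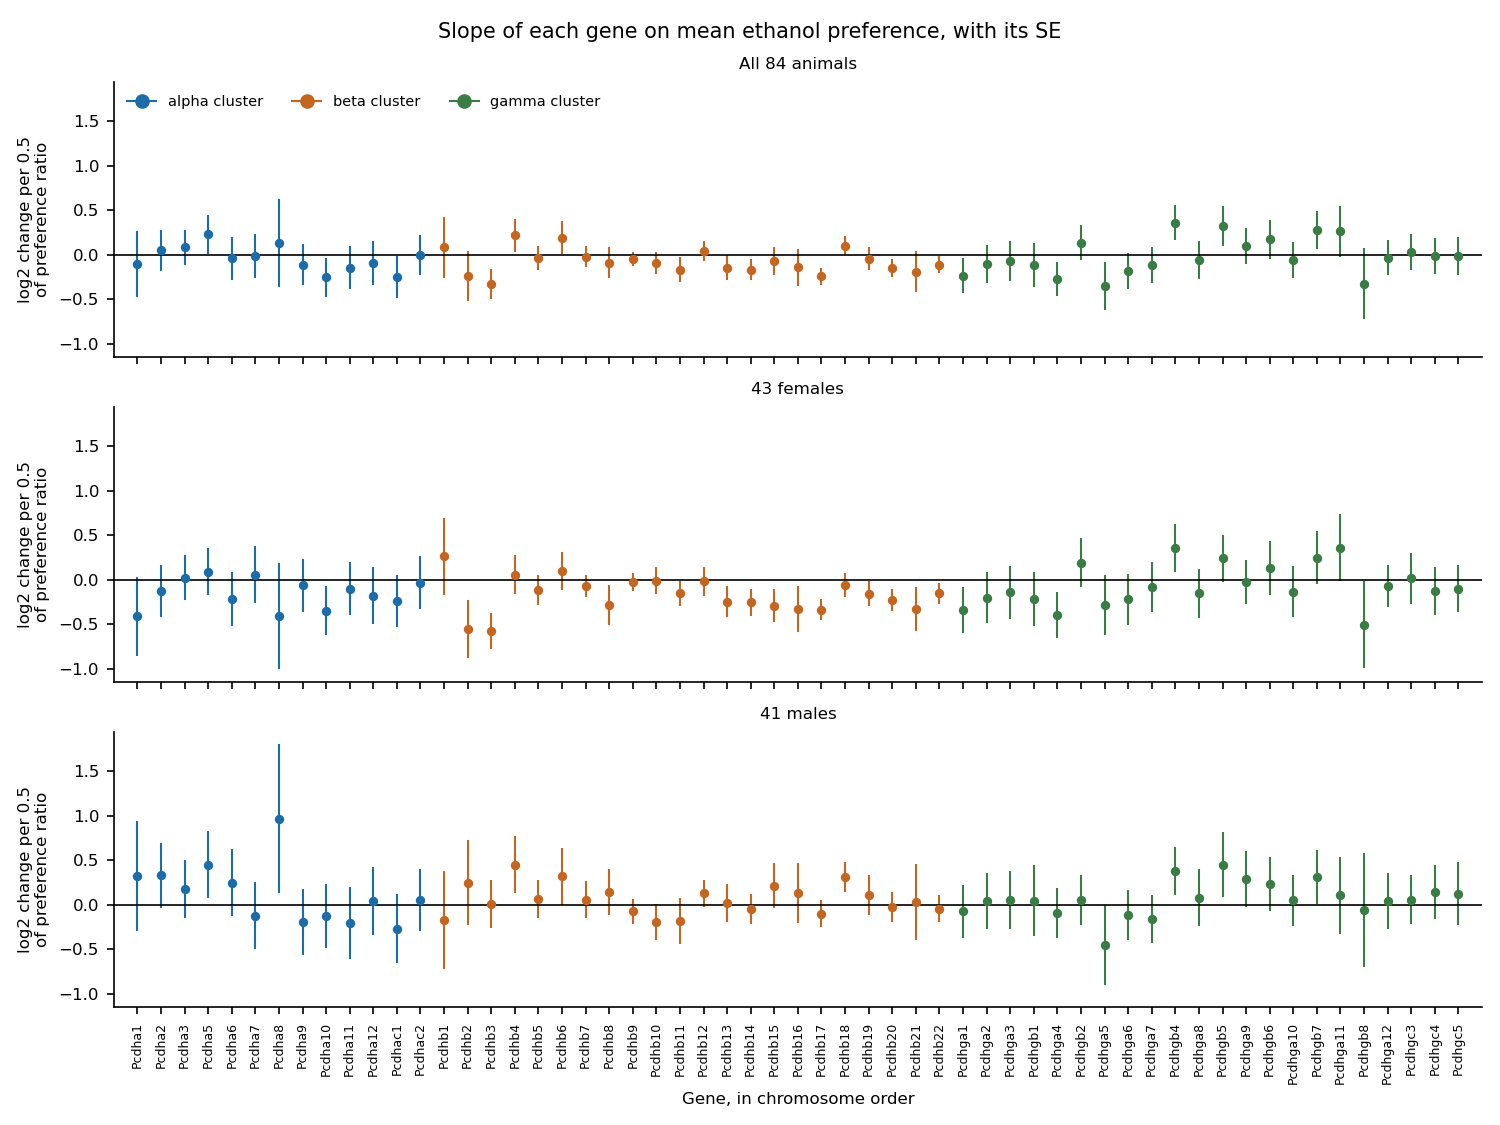
Slope of each gene on mean ethanol preference, as log2 change per 0.5 of the preference ratio with its SE, in all 84 animals, 43 females and 41 males, in chromosome order. Slopes in all animals lie between -0.35 and 0.36, and 44 of 57 lie below 0 in females against 19 of 57 in males.

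Between the sexes, differences are given as male minus female on the log2 scale. The median was 0.06 over the 57 genes and 0.00 over all genes tested, of which 8531 of 16320 lay above 0. Above 0 were 20 of 22 gamma genes and 11 of 13 alpha genes, and 19 of 22 beta genes were below 0. The median gamma total was nonetheless higher in females, 239.4 against 231.9 CPM, and females 42 and 41 were among the 3 lowest libraries. With the length score as a covariate the median difference was -0.04 with 37 of 57 genes below 0. These counts, too, are over genes that co-vary and are not independent observations. Pcdha8 had the smallest p, with a difference of -0.71 (SE 0.31, edgeR adjusted p 0.986). Its female median was 0.598 CPM and its male median 0.249 CPM, and the ranges overlapped. Pcdha6 and Pcdha9 followed at 0.35 (SE 0.15) and 0.32 (SE 0.15), with the same adjusted p.

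Related genes did not pass either. For mean preference in all animals edgeR called 0 of 26 genes of promoter choice and chromatin looping, with a median slope of 0.00 and 0 at an unadjusted p under 0.05. The smallest p there belonged to the cohesin subunits Smc3, -0.07 (SE 0.041), and Smc1a, -0.07 (SE 0.039), and to the neuronal gene repressor Rest, 0.22 (SE 0.12), each with an adjusted p of 1.00. Of 17 non-clustered protocadherins and related large cadherins 0 were called and 0 had an unadjusted p under 0.05, with a median slope of 0.06. Dchs1, a large cadherin of planar polarity, had 0.28 (SE 0.14), Pcdh10 -0.15 (SE 0.10) and Pcdh20 0.25 (SE 0.23). Of 19 classical and type II cadherins, 27 intracellular partners and processing enzymes and 28 other recognition molecules, 0 were called and 1 in each list had an unadjusted p under 0.05.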

How the data were processed

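The deposited values were read counts per gene, not normalized, per the labels, for 84 poly(A)-selected stranded libraries of laser-dissected central amygdala (RNA quality score above 7, per the labels' protocols). FastQC, STAR, Subread featureCounts 1.6.0 and DESeq2 on GRCm38 (mm10) are named in the submitters' processing notes, with no role. Not given in the sources used here: the annotation release, the strand setting and the handling of reads that match several genes. In the table, 3 columns of undetermined reads and 5 empty columns, 8 in all, were not used.

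Counts were scaled by TMM in edgeR 4.0.16 (R 4.3.3). Genes with enough reads by edgeR's filter (minimum count 10, minimum total 15) numbered 16320 and held all 57 members. Slopes came from the quasi-likelihood test with Benjamini-Hochberg adjustment over all genes and sex as a term where both sexes entered. DESeq2 1.42.0 and limma-voom 3.58.1 were alternatives. Log2 CPM used a prior count of 2. Correlations used permutation tests with 100000 resamples (scipy 1.17.1). The statistics were tested on simulated data.

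Levels per kilobase used exon sequence that no gene on the same strand overlaps. The plan had named overlap by any gene, which leaves Pcdhga10 no sequence of its own, although it had a median of 184 reads. ENSMUSG00000007440 is named Pcdha10 as in the table. Named genes were all C-type genes, the highest and lowest of each other type per kilobase, the 3 widest and 3 narrowest spreads, the 5 closest pairs and the lowest, and the 3 smallest p of each comparison, of which those with an unadjusted p under 0.05 or in a leading comparison are printed. The members and gene lists were chosen with earlier results of these data known. The length score, the 3 lowest libraries, the symbols in capitals and the block around Pcdhb4 to Pcdhb7 were considered after the data were seen. No sequence of these genes is reported here.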

Additional observations from a re-analysis of the deposited data

How the results depend on the processing

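No paired analysis was possible because the replicate numbers only name the animals of each sex in accession order. The count of members called was 0 in each of 139 recomputed results, over the 12 comparisons and the alternatives that applied to each. The alternatives were other tools, size factors, filters, run, marker or length covariates, ranked preference, and leaving out male 39 or the 3 lowest libraries. The 139 also count, for each comparison, the 44 genes in mouse spelling in the main fit, a subset that could only give 0. Members at an unadjusted p under 0.05 were most for the sex difference with marker scores as covariates, 12 of 57 (21.1%, against 9.03% of all genes), of which 0 were called.

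Levels moved with membership and length. The 44 genes in mouse spelling summed to 13.7 CPM for alpha and 89.3 CPM for gamma. All 22 beta genes are in that spelling, so the beta total stayed at 155.3 CPM and gamma then lay below beta. Whole exon length gave medians of 0.347 and 1.33 CPM per kilobase for alpha and gamma. The beta median per kilobase of own sequence was 1.28. Of the 44 genes 8 lay above the spread trend, as did 8 of 57 with the length score, sex and run removed, 18.2% and 14.04% against 23.9% and 22.4% of all genes, so the excess of 31.6% over all genes was lost. With that removal median r was 0.33 within alpha, 0.41 within gamma, 0.31 between alpha and gamma and 0.043 between beta and gamma. Relative to the summed count of all members it was 0.25, 0.24 and 0.16 for the first 3 and 0.41 within beta, the highest. The median turned to -0.26 between alpha and beta and -0.29 between beta and gamma. Dividing by a shared sum changes r by construction and lowers it between clusters. The order of the clusters there is therefore not read as a result. Relations of gamma past the threshold numbered 3 with the length score removed. There r of alpha turned from -0.324 to 0.00944 with the central amygdala neuron score, from -0.265 to 0.00284 with the microglia score and to -0.0833 with Ctcf, and r of gamma with Ctcf to -0.0976. A further 12 r lost the threshold under an alternative. The cause of these changes was not tested.

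Depth limits Pcdha8 and Pcdhb1, with 35 and 24 libraries under 10 reads, and p-values cover only the spread between these animals.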
